A study of Mus musculus with 8 samples.

Results

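The comparison described here is busulfan against vehicle in testes of Tent5c dcat/dcat mice. It was taken from the sample labels and holds 4 of the 8 libraries of the series, 2 from vehicle-treated and 2 from busulfan-treated mice. All 4 mice were adult males that carried a catalytically dead (dcat) form of TENT5C, in both copies of the gene and in all cells. Each received a single injection of busulfan (20 mg/kg) or its vehicle, and the whole testis was taken 4 weeks later. Each library came from 1 mouse, so that n = 2 mice per group throughout. The other 4 libraries came from Tent5c wt/wt (wt) mice under the same treatments and are used below only to show where the dcat response differed. Poly(A) RNA was sequenced directly on Nanopore flow cells, so that a read stands for 1 RNA molecule, and the current trace gives an estimate of its poly(A) tail length.

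TENT5C is a cytoplasmic poly(A) polymerase that adds adenosines to selected mRNAs, and in the dcat mouse the protein is made without that activity. Busulfan is an alkylating agent that kills dividing spermatogonia, so that the later germ cells are lost as they mature without being replaced, while Sertoli, Leydig and other somatic cells largely stay. Spermatids store many mRNAs with long poly(A) tails for use after transcription has stopped, and mitochondrially encoded mRNAs carry short tails of their own kind. In a whole testis, fewer cells of a type and less RNA per cell cannot be told apart.

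The dcat vehicle libraries held 29574 and 129074 reads and the dcat busulfan libraries 61482 and 96700, in the order of replicates 1 and 2. The limit that a count of 0 allows, set at 3 reads, was 101.44 and 23.24 counts per 1000000 reads (CPM) in the vehicle libraries and 48.79 and 31.02 CPM in the busulfan libraries. Counts of replicates differed by more than sampling noise, with a chi-square per degree of freedom of 2.71 in the vehicle and 2.79 in the busulfan group. Leydig, Sertoli and germ cell genes, the defining markers of testis, were read in all 4 libraries. Markers of red blood cells were near 0, with 4, 1, 0 and 0 reads of the haemoglobin gene Hba-a2. The Tent5c transcript itself (ENSMUST00000061455) was read 22 and 115 times in the vehicle and 24 and 66 times in the busulfan libraries, and cannot check the labels, because the dcat allele leaves a transcript. Its level was 730 and 919 CPM against 385 and 717 CPM, which did not pass the test (log2 fold change -0.58, SE 0.38, edgeR adjusted p = 0.182).

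Of the 2783 transcripts in the count table, 1746 (62.7%) differed between busulfan and vehicle in dcat testes by edgeR's quasi-likelihood test at an adjusted p under 0.05. Of these, 871 were higher (31.3% of all) and 875 lower (31.4%) after busulfan. The median log2 fold change over all transcripts was 0.14. Somatic genes rose and genes of spermatids and spermatocytes fell, and the lists of genes below show this list by list, with each gene standing by its most-read transcript. Without vehicle replicate 2, the most deeply read library, 712 transcripts passed. DESeq2 called 1095, of which 35.7% were higher. Scaling by relative log expression (RLE) moved the median of all transcripts to -0.08, so that fold changes are relative to a midpoint that shifts by more than 0.1 with the scaling.

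**Figure D1:**
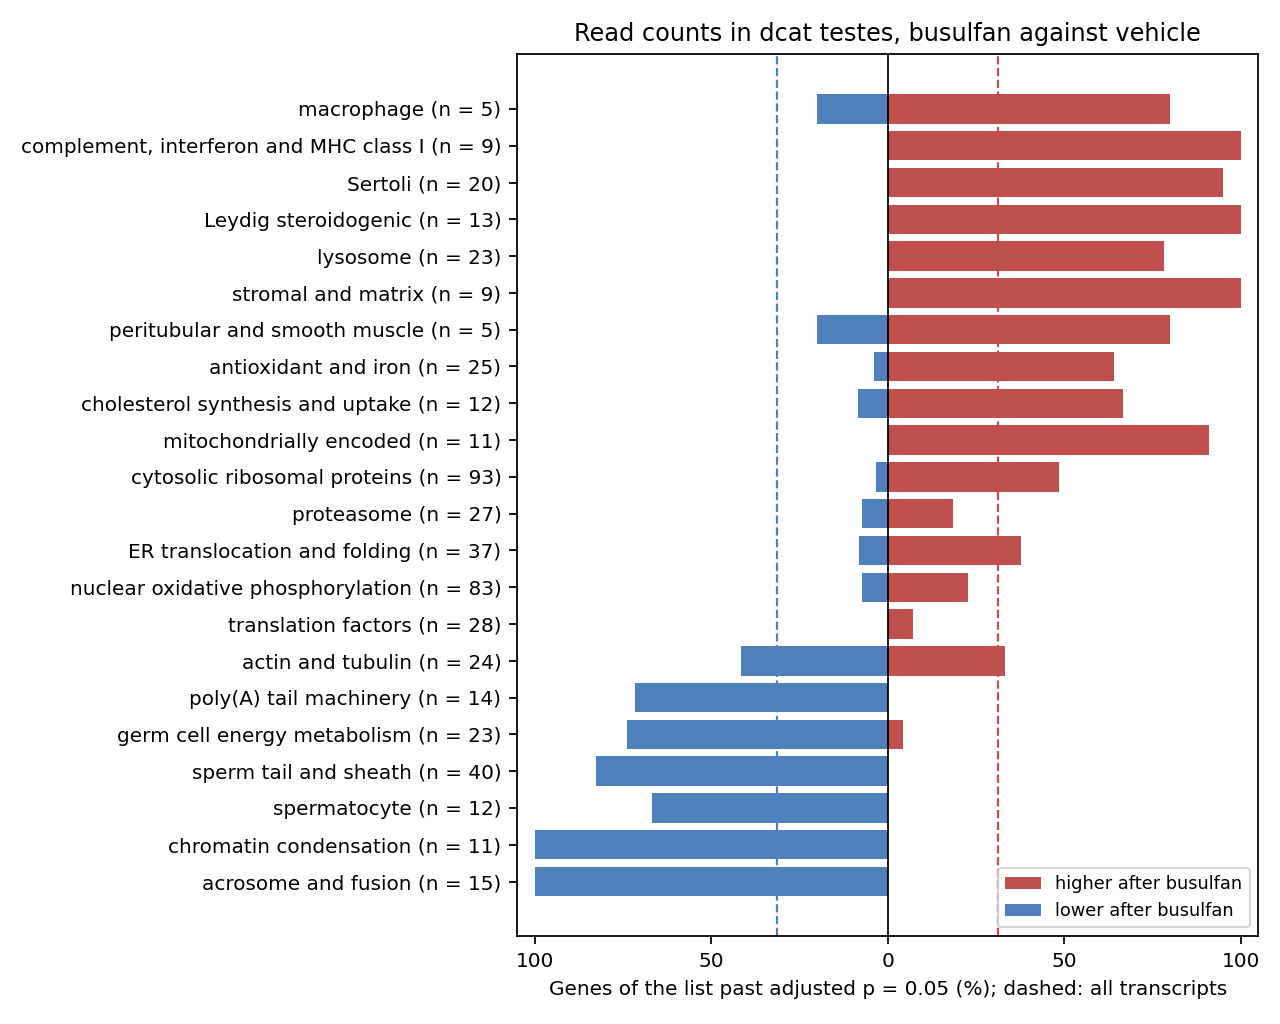
Share of the genes of each list that passed edgeR's test (adjusted p under 0.05) in dcat testes, higher (red, to the right) or lower (blue, to the left) after busulfan. The horizontal axis is in percent of the genes of the list that were read (n), and the dashed lines mark the shares over all transcripts, 31.3% higher and 31.4% lower. Lists with 5 or more genes read are shown. Leydig, Sertoli and stromal genes lie to the right, and spermatocyte, acrosome, chromatin and sperm tail genes to the left.

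Leydig cells make testosterone and the hormone INSL3. All 13 genes of the Leydig list that were read rose, with a median log2 fold change of 2.57. Summed over the list, 7371 and 4160 CPM in the vehicle libraries became 29440 and 24340 in the busulfan libraries, 4.66-fold higher. Insl3 (ENSMUST00000034261, GRCm38 chr8:71689214-71690575, 2 exons) had 4679 and 2213 CPM in the vehicle and 14930 and 14440 CPM in the busulfan libraries, which did not overlap (log2 fold change 2.12, SE 0.34, adjusted p = 6.11e-05). Cyp17a1, the enzyme that turns progestins into androgens, rose from 498 and 607 to 3709 and 3238 CPM (2.61, SE 0.35). Cyp11a1, which makes the first steroid from cholesterol, went from 99.6 and 168 to 1461 and 1098 CPM (3.08, SE 0.43). Hsd3b1 (2.95), Hsd3b6 (3.13) and Star (2.12), the carrier that brings cholesterol into mitochondria, rose as well. The smallest rise of the list was that of Fdx1, the electron donor of mitochondrial P450 enzymes (1.23). When vehicle replicate 2 was left out, 8 of the 13 passed.

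Genes that make, take up or move cholesterol, the raw material of steroids, were mostly higher. Of 12 read, 8 rose and 1 fell (median 1.96). Apoe, a lipid carrier, rose from 99.6 and 63.9 to 658 and 641 CPM (3.13, SE 0.50), and Scd2, a fatty acid desaturase, from 133 and 120 to 771 and 717 CPM (2.58, SE 0.45). Scarb1, the receptor for high-density lipoprotein, rose by 1.65 on the log2 scale. Msmo1 and Ebp, enzymes of sterol synthesis, rose from 3 and 2 reads in the vehicle group to 38 and 31, ratios of 12.7 (exact 95% counting interval 4.03 to 64.3) and 15.6 (3.96 to 134). Fdft1, the enzyme of the first committed step of sterol synthesis, fell by 1.23 (adjusted p = 0.0471), from 9 and 25 reads to 5 and 10. Hmgcs1 (1.07, adjusted p = 0.188), Idi1 (-0.03) and Fdps (0.87) did not pass. This fall was lost with the replicate block, the low-count filter, only the dcat libraries, DESeq2 and each library left out. Without vehicle replicate 2 or with DESeq2, 5 genes of the list rose.

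Sertoli cells nurse the germ cells within the tubule. Of the 20 Sertoli genes read, 19 rose, with a median of 2.66, and summed CPM went from 8149 and 4858 to 42500 and 30910, 5.64-fold higher. Clu, a secreted chaperone, rose from 1858 and 1166 to 11770 and 9194 CPM (2.83, SE 0.34, adjusted p = 4.88e-06). Defb19, a beta-defensin, went from 1095 and 855 to 4817 and 3738 CPM (2.16), and Ctsl, a lysosomal protease that Sertoli cells secrete, from 697 and 344 to 3420 and 2195 CPM (2.57). Aard rose by 2.76, and Inha, a subunit of inhibin, by 2.13 on the log2 scale. Wt1, a transcription factor of Sertoli cells, had 3 reads in the vehicle and 34 in the busulfan group, a ratio of 11.4 (exact 95% counting interval 3.58 to 57.8). Cldn11, a protein of the tight junctions between Sertoli cells, rose from 365 and 176 to 979 and 924 CPM (2.01). Kitl, the stem cell factor, was the only Sertoli gene that did not pass (1.11, adjusted p = 0.157), with 5 and 5 reads against 7 and 16.

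The other somatic cells of the testis were read more thinly. All 9 stromal and matrix genes rose (median 2.30), led in reads by the protease inhibitor Timp2 (1.94), the matrix protein Sparc (2.33) and Igfbp7 (2.25). Sparc went from 365 and 168 to 1317 and 1011 CPM. Of 5 genes of peritubular and smooth muscle cells, Myl9 (2.69), Acta2 (2.32), Mylk (2.29) and Myl6 (1.41) rose. Myl6 did not pass with DESeq2 (1.18, adjusted p = 0.230), with RLE scaling or with only the dcat libraries. Actg2, a smooth muscle actin, fell by 1.43 with overlapping groups, at 99.6 and 359.5 against 64.2 and 130 CPM, and without vehicle replicate 2 its log2 fold change was 0.11. The only endothelial gene read, Vcam1, rose by 2.75 on the log2 scale. Of 5 macrophage genes, Lyz2 (lysozyme, 2.71), Cd74 (2.91), the complement subunit C1qc and H2-Aa rose, each from at most 6 reads in a vehicle library. C1qc had 1 and 19 reads per group (ratio 19.1, exact 95% counting interval 3.03 to 792) and H2-Aa 1 and 8 (8.02, 1.08 to 356). Aif1 went the other way, from 14 and 39 reads to 3 and 8 (-2.33, adjusted p = 0.00131). Cell types that rest on 1 to 5 genes are for this reason weakly described by these libraries. DESeq2 called 2 of the 5 peritubular and 3 of the 5 macrophage genes higher. Without vehicle replicate 2, the medians of these 2 lists went from 2.29 and 2.73 to 1.35 and 1.84. Of the 9 stromal genes, 5 passed without vehicle replicate 2.

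Beside the marker lists, 3 lists of general function moved in the same direction. Of 23 lysosome genes, 18 rose and 0 fell (median 2.53), and summed CPM went from 3956 and 3022 to 12330 and 9380. Lgmn, a lysosomal endopeptidase, rose from 66.4 and 24.0 to 642 and 402 CPM (3.89, SE 0.64), and the protease Ctsb from 332 and 120 to 1220 and 783 CPM (2.44). The most-read member, Laptm4a, did not pass (0.66, adjusted p = 0.159), and neither did the membrane protein Lamp1 (0.19). All 9 genes of complement, interferon response and MHC class I rose (median 2.66), among them Lcn2, an iron-binding protein of innate immunity (1.76), and B2m, the light chain of MHC class I (1.93). Lcn2 went from 796 and 367 to 2312 and 1282 CPM. Without vehicle replicate 2, 8 lysosome genes and 2 genes of the immune list passed, and DESeq2 called 11 and 5.

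Genes of antioxidant defence and iron storage were the third such list, with 16 of 25 higher and 1 lower (median 2.244). Gstm1, a glutathione transferase, rose from 1726 and 751 to 6583 and 8618 CPM (2.71, SE 0.38). Fth1, the heavy chain of ferritin, rose from 564 and 583 to 3147 and 3043 CPM (2.42, SE 0.34), and its light chain Ftl1 by 3.29 on the log2 scale. The glutathione peroxidase Gpx1 rose by 3.79. The metallothioneins Mt1 (0.30, adjusted p = 0.418) and Mt2 (-0.13) did not pass. Gstt4, another glutathione transferase, fell by 2.38, from 13 and 88 reads to 4 and 14. The only p53 target read, Phlda3, had 1 and 1 against 6 and 2 reads and did not pass (1.88, adjusted p = 0.115).

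In spermatids, histones give way to transition proteins and then to protamines, which pack the DNA of the sperm head. All 11 genes of this chromatin condensation list fell, with a median log2 fold change of -2.13. Summed over the list, 83320 and 98600 CPM in the vehicle libraries became 16020 and 32340 in the busulfan libraries, a 3.76-fold higher level in vehicle. Prm1 (GRCm38 chr16:10796326-10796886) had 25390 and 31620 CPM in the vehicle and 2408 and 10530 CPM in the busulfan libraries (-2.13, SE 0.43, adjusted p = 0.000378). Prm2, its neighbour (chr16:10791380-10792105), had 19550 and 26200 against 9441 and 11170 CPM (-1.15, SE 0.29, adjusted p = 0.00221), the smallest fall of the list. Tnp1 fell from 17390 and 19390 to 1557 and 5466 CPM (-2.38, SE 0.42), and Tnp2 from 12010 and 16180 to 1718 and 4727 CPM (-2.12, SE 0.42). Prm1 was the most-read transcript of both vehicle libraries and mt-Co1 that of both busulfan libraries.

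The busulfan libraries were not alike in germ cell genes. Replicate 2 held 2.02 times the summed CPM of replicate 1 for chromatin condensation, 2.69 times for spermatocyte genes, 2.77 times for the 2 spermatogonial genes and 1.46 to 1.54 times for genes of the acrosome, the sperm tail and germ cell energy metabolism. Of the somatic lists, Sertoli genes were at 0.727 and Leydig genes at 0.827 times the level of replicate 1. Without busulfan replicate 2 the median of the chromatin list was -3.56, and without replicate 1 it was -1.58, so that the size of the germ cell fall depends on which mouse is counted. The spermatocyte, acrosome, chromatin, sperm tail and energy lists were nevertheless lower in each busulfan library than in each vehicle library, while the 2 spermatogonial genes summed to 406 and 310 CPM in the vehicle and 277 and 765 CPM in the busulfan libraries, which overlap.

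**Figure D2:**
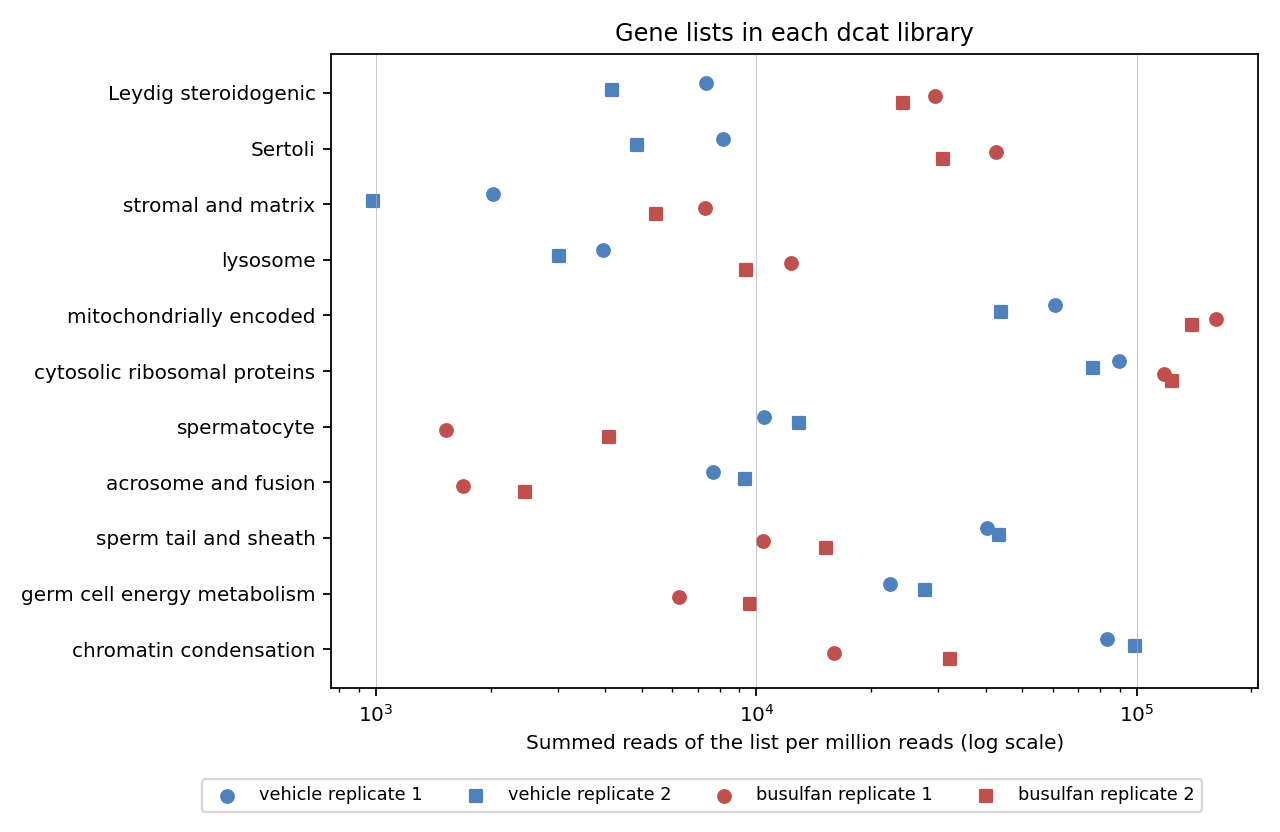
Summed CPM of 11 gene lists in each of the 4 dcat libraries, on a log scale, with vehicle in blue, busulfan in red, replicate 1 as circles and replicate 2 as squares. Groups did not overlap in any list shown, and the gap between the red points is widest for spermatocyte and chromatin condensation genes, at 2.69 and 2.02 times.

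The sperm tail and its sheaths, built late in spermatid life, had 33 of 40 genes lower and 0 higher (median -1.98). Ropn1l, a protein of the fibrous sheath and radial spokes, fell from 6040 and 5000 to 401 and 956 CPM (-2.98, SE 0.37, adjusted p = 7.08e-06). Odf1, the main protein of the outer dense fibres, fell from 3485 and 2972 to 658 and 978 CPM (-1.96, SE 0.36). Spa17 fell by 2.01 on the log2 scale. Smcp, a protein of the sperm mitochondrial capsule, was one of the 7 that did not pass, with 2356 and 3235 against 1557 and 2043 CPM (-0.65, adjusted p = 0.103). All 15 genes of the acrosome and of sperm-egg fusion fell (median -2.53). They included Crisp2 (-1.37), at 1128 and 1813 against 498 and 663 CPM, and Spata46 (-3.08), at 365 and 671 against 48.2 and 76.1 CPM. Acr, the protease acrosin, had 7 and 32 reads in the vehicle and 1 and 2 in the busulfan libraries, a ratio of 13.0 (exact 95% counting interval 4.12 to 65.6).

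Germ cells use their own isoforms of glycolytic enzymes. Of 23 genes of germ cell energy metabolism, a list that also holds respiratory and more general enzymes, 17 fell and 1 rose (median -1.89). Ldhc, the testis lactate dehydrogenase, fell from 4779 and 7621 to 706 and 1902 CPM (-2.24, SE 0.38), Gapdhs from 1294 and 1981 to 434 and 467 CPM (-1.89, SE 0.38) and Pgam2 from 1726 and 2173 to 80.3 and 391 CPM (-2.97, SE 0.44). The member that rose was Adh5 (2.79), an alcohol dehydrogenase that is not confined to germ cells. Of 12 spermatocyte genes 8 fell (median -2.05), among them Meig1 (-2.04), at 2356 and 4122 against 369 and 1195 CPM, the chaperone Hspa2 (-2.21) and Mael (-2.15), which acts in silencing of transposons. Components of the synaptonemal complex, which pairs the chromosomes in meiosis, split, with Syce1 lower (-2.05) and Sycp3 (-0.24, adjusted p = 0.700), Syce2 (-0.19) and Syce3 (-1.05) not past the threshold. Spermatogonia were represented by 2 genes, of which Uchl1 rose (2.39) from 166 and 55.9 to 209 and 641 CPM, and Ddx4, a germ cell RNA helicase, did not pass (-1.07, adjusted p = 0.0773). Uchl1 did not pass without busulfan replicate 2 (1.35, adjusted p = 0.0894), without vehicle replicate 2 (1.47, adjusted p = 0.133) or with DESeq2 (1.94, adjusted p = 0.0504). Without vehicle replicate 2, 9 energy genes, 5 spermatocyte genes, 8 acrosome genes, 19 sperm tail genes and 7 chromatin genes passed as lower.

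Proteins that build, bind or remove poly(A) tails are of interest in a mouse without TENT5C activity. Of 14 such genes read, 10 fell and 0 rose (median -1.59). Pabpc1, the main cytoplasmic poly(A)-binding protein, fell from 2788 and 3155 to 418 and 1152 CPM (-1.89, SE 0.38), and its testis paralog Pabpc2 by 2.99 on the log2 scale. Papolb, the testis poly(A) polymerase, fell by 2.29, from 5 and 86 reads to 2 and 14. The Y-box proteins, which hold stored mRNA in germ cells, fell as well, Ybx1 by 1.22, Ybx2 by 2.33 and Ybx3 by 1.58, and the groups overlapped for Ybx3. Tent5c, Paip2 (0.00), Nudt21 (0.43) and Tob1 (1.34) did not pass. Leaving out vehicle replicate 2, 3 genes of the list passed as lower and 1 as higher, and without busulfan replicate 1, 5 passed as lower.

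To show the sequence in front of genes that moved together, RefSeq promoters (GRCm38.p6, 250 bases before to 50 after the gene start) were searched on both strands. The letters were CAAGGTCA, bound by the steroidogenic factor NR5A1, and TGACGTCA, the cAMP response element (CRE) that CREM binds in spermatids. Read on the opposite strand, the NR5A1 motif begins with the same 4 letters as the CRE. Of 27025 promoters, 476 (1.76%) held the NR5A1 motif and 549 (2.03%) the CRE. Among the lists, the NR5A1 motif lay in 0 of 8 Leydig promoters, 1 of 15 Sertoli promoters and 1 of 10 chromatin condensation promoters. It also lay in 3 of 53 promoters of nuclear genes of oxidative phosphorylation (5.66%) and 1 of 18 of lysosome genes. Among genes in the count table, 28 of 1729 promoters held it (1.62%). The CRE lay in 0 of 10 chromatin condensation and 1 of 31 sperm tail promoters, in 6 of 63 promoters of ribosomal protein genes (9.52%) and in 4 of 53 of nuclear genes of oxidative phosphorylation (7.55%), beside 73 of the 1729 promoters of genes in the count table (4.22%). The 3 windows of Sertoli and spermatid genes with a motif are shown 5′ to 3′ on the strand of the gene, with the motif in capitals.
Amhr2, NR5A1 motif, chr15:102445124-102445153, plus strand: gcaccttcttcCAAGGTCAgtaggggtaga
Prm2, NR5A1 motif, chr16:10792300-10792329, minus strand: ggttagaagttCAAGGTCAttcttcattgt
Spag6l, CRE, chr16:16829354-16829383, minus strand: cactctggccgTGACGTCAcgacctttgct

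The motifs start 232 bases before the gene start in Amhr2, 213 in Prm2 and 9 in Spag6l. Amhr2, the receptor of anti-Müllerian hormone, rose from 9 and 30 reads to 95 and 152 (2.61). Spag6l, a protein of the sperm axoneme, fell from 9 and 62 reads to 3 and 12 (-2.14, adjusted p = 0.00178). Prm2, with the same motif as Amhr2, fell, as given above. Whether any factor was bound there was not measured.

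Lists of genes used by every cell had medians from -0.77 for actin and tubulin genes to 1.52 for mitochondrially encoded transcripts. Of 11 mitochondrially encoded transcripts 10 rose (median 1.52), and their summed CPM went from 60800 and 43840 to 161600 and 139700, 2.88-fold higher. mt-Co1, a subunit of cytochrome c oxidase, rose from 15370 and 12320 to 51780 and 49210 CPM (1.87, SE 0.29, adjusted p = 4.61e-05). mt-Nd6 did not pass (0.70). Of the 83 nuclear genes of oxidative phosphorylation, 19 rose (22.9%) and 6 fell (7.23%), with a median of 0.54. Both shares were below those over all transcripts, 31.3% and 31.4%. Cox8c, the testis isoform of a cytochrome c oxidase subunit, fell from 2024 and 1925 to 128 and 619 CPM (-2.32), while Cycs, the cytochrome c of somatic cells, rose by 2.39 on the log2 scale.

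Of the 93 cytosolic ribosomal protein genes read, 45 rose and 3 fell (median 0.85), and summed CPM were 1.45-fold higher. The 3 that fell were Rpl10l (-2.11) and Rpl39l (-1.95), retrogene copies used in the germ line, and Rps13-ps1 (-1.49), a pseudogene whose reads may be shared with its parent gene. Without vehicle replicate 2, 28 rose, and DESeq2 called 12 higher and 3 lower. Of 28 translation factors only Eef1b2 (1.14) and Eif4a1 (1.96) passed (median -0.08), and the most-read one, Eef1a1, did not (0.42, adjusted p = 0.216).

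Of 37 genes of ER translocation and folding, 14 rose (37.8%, beside 31.3% over all transcripts) and 3 fell (median 0.72). The chaperones Calr (1.16), Hsp90b1 (1.21) and Pdia3 (1.35) rose, and Spcs1, Spcs2 and Creld2 fell. None of these chaperones passed with DESeq2, with adjusted p = 0.128 for Calr, 0.0828 for Hsp90b1 and 0.0826 for Pdia3. Of the list, 6 rose and 1 fell without vehicle replicate 2, and DESeq2 called 3 higher and 2 lower. The proteasome list had 5 of 27 higher (18.5%) and 2 lower (7.41%), both shares below those over all transcripts. The 2 lower were Psma6 (-0.96) and Psmc3 (-1.55). Of 24 actin and tubulin genes, 8 were higher (33.3%) and 10 lower (41.7%), near the 31.3% and 31.4% over all transcripts. The testis alpha-tubulins Tuba3a (-1.77) and Tuba3b (-1.86), which are near-identical so that reads may be split between them, fell, while Tuba1a rose (2.59). The 2 globin genes did not pass.

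Among genes that reached 20 reads in both libraries of the higher group, the largest rises were Mgarp, a mitochondrial protein of steroid-making cells (5.04, SE 0.84), Lgmn (3.89), Myl6 (3.86, transcript ENSMUST00000218127), Abcc1, a drug and glutathione-conjugate exporter (3.83), Gpx1 (3.79), Ptgds, a prostaglandin D2 synthase (3.76), Serpina5 (3.70), Cpe, a carboxypeptidase of hormone maturation (3.68), Vim, the intermediate filament of somatic cells (3.67), and Ldhb (3.59). Mgarp had 0 and 1 reads in the vehicle and 20 and 20 in the busulfan libraries. Ptgds went from 199 and 87.9 to 1493 and 1717 CPM. Ldhb went from 266 and 79.9 to 1911 and 1282 CPM, opposite to the testis isoform Ldhc. With 1 to 3 reads in the vehicle group, the fitted values of Mgarp, Abcc1 and Myl6 rest on the prior count. Their ratios of reads were 40.1 (exact 95% counting interval 6.80 to 1624), 14.7 (4.71 to 74.1) and 15.0 (4.83 to 75.7).

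The largest falls were Ggnbp1 (-4.54, SE 0.83), Pdcl2, a chaperone of spermatids (-4.31), Txndc2, a sperm thioredoxin (-3.89), Actl7b, an actin-like protein of the spermatid head (-3.88), Ldhc (-3.59, transcript ENSMUST00000210585), 1700012B09Rik (-3.59), Ddx25, an RNA helicase of spermatids (-3.56), Gtsf1l (-3.40), Nscme3l (-3.39) and Meig1 (-3.39, transcript ENSMUST00000064685). Ggnbp1, with 28 and 31 against 1 and 2 reads, had a ratio of 19.6 (exact 95% counting interval 6.39 to 97.8). Actl7b had 64 and 171 reads in the vehicle and 4 and 14 in the busulfan libraries. Ddx25 had 36 and 147 against 0 and 16 reads, and Pdcl2 24 and 72 against 0 and 5. In the last 3 the busulfan reads came mostly from replicate 2, the library with more germ cell reads.

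Busulfan in wt testes was used to ask where the dcat response differed. In wt testes 2053 transcripts (73.8%) passed, 986 higher (35.4%) and 1067 lower (38.3%). The somatic lists had medians of 3.01 (Leydig), 2.97 (Sertoli) and 2.80 (stromal) in wt against 2.57, 2.66 and 2.30 in dcat testes. The germ cell lists had medians of -5.06 (chromatin condensation), -4.88 (acrosome), -4.52 (sperm tail), -3.94 (energy) and -3.25 (spermatocyte) in wt, against -2.13, -2.53, -1.98, -1.89 and -2.05 in dcat testes. Medians of lists were not tested against each other.

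**Figure D3:**
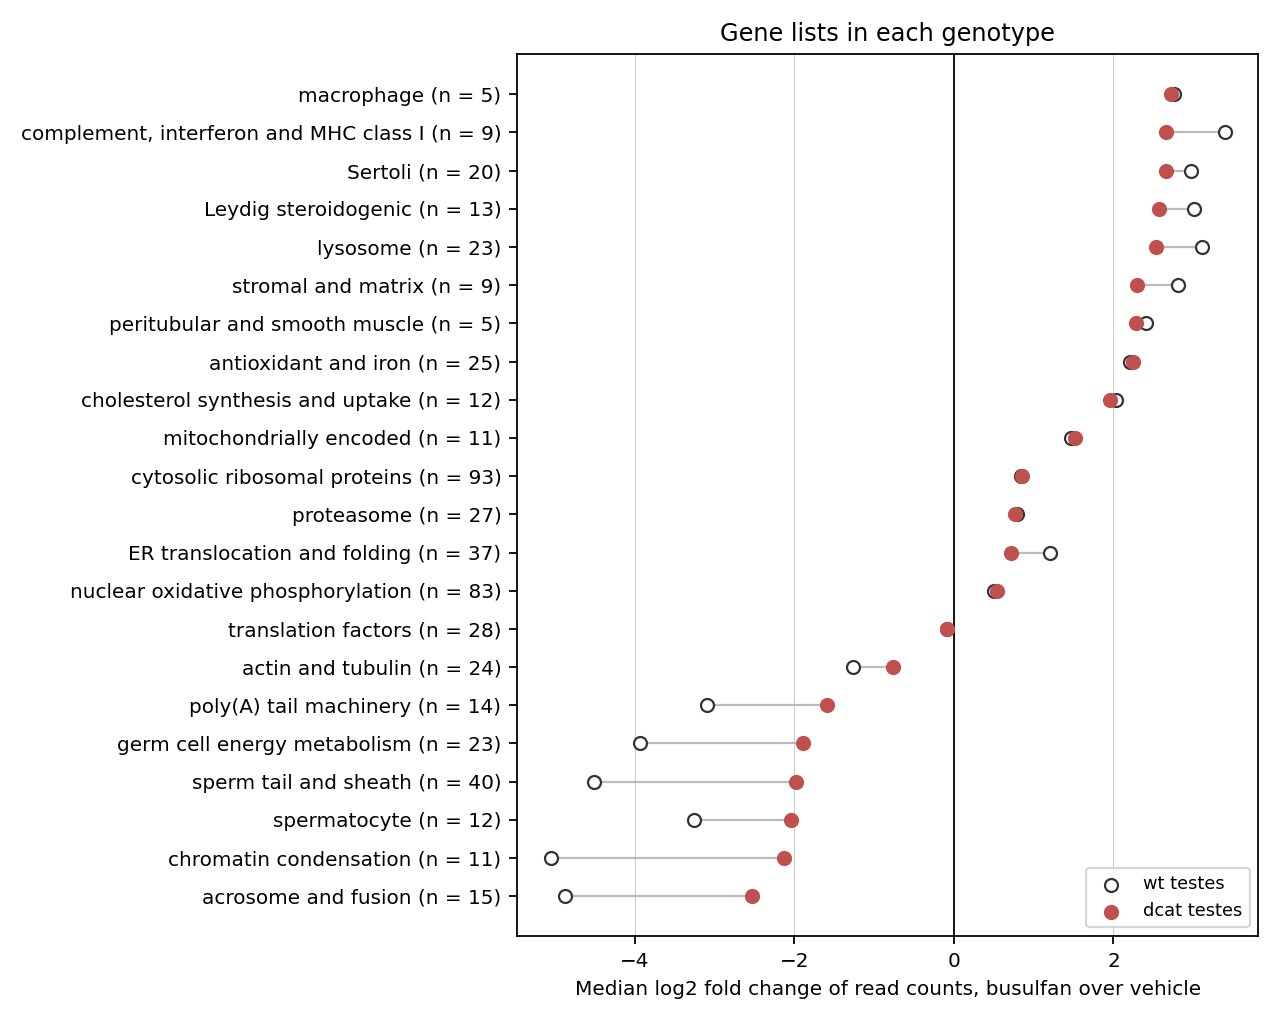
Median log2 fold change of read counts, busulfan over vehicle, for each gene list in wt (open circles) and dcat testes (red circles), with n the genes read. The germ cell lists lie farther below 0 in wt than in dcat testes, for chromatin condensation at -5.06 and -2.13, and so does the poly(A) machinery, at -3.10 and -1.59, while ribosomal proteins lie at 0.84 and 0.85 and mitochondrially encoded transcripts at 1.47 and 1.52.

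The difference itself, the interaction of busulfan and genotype, passed edgeR's test for 9 transcripts (0.323%), and in all 9 the fall was smaller in dcat than in wt testes. The replicate number as a block raised this count to 123, and leaving out 1 library moved it to between 3 and 257. It was 257 without dcat busulfan replicate 1, 164 without dcat vehicle replicate 2, and 3 without dcat busulfan replicate 2 or without wt busulfan replicate 1 or either wt vehicle library. All 4 most-read chromatin genes were among the 9. Prm1 had 47 and 130 reads in the wt busulfan libraries and 150 and 969 in the dcat ones, and its interaction was 2.94 (SE 0.61, adjusted p = 0.0222). Prm2 had 149 and 155 against 588 and 1028 reads (2.72, SE 0.42, adjusted p = 0.00108). Tnp1 (2.82) and Tnp2 (2.93), as well as Gapdhs (2.78), passed too. The other 4 were Cby2, Spem1, Spata6 and 4933411K16Rik, which are outside the rule for named genes and were chosen after their values were seen.

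The 9 differences were also computed without dcat busulfan replicate 2, the library with more germ cell reads. Without it, Prm2 (2.59, adjusted p = 0.00575), Spem1 (4.89) and 4933411K16Rik (3.47) still passed. Prm1 (1.51), Tnp1 (1.63), Tnp2 (2.01), Gapdhs (2.71), Cby2 (5.78) and Spata6 (3.60) did not. With all libraries the values of these genes were 2.94, 2.82, 2.93, 2.78, 6.85 and 4.33, in the same order, so that only that of Gapdhs stayed close. Without dcat busulfan replicate 1 instead, all 9 passed. Spem1, a protein of spermatid maturation, had 20 and 32 reads in the dcat and 1 and 1 in the wt busulfan libraries. The part that dcat busulfan replicate 2 plays in these differences was not tested beyond these values.

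Poly(A) tails were shorter after busulfan. The mean tail over all reads was 134.4 and 144.4 nt in the vehicle and 110.8 and 114.6 nt in the busulfan libraries, which did not overlap. The difference of -26.7 nt (vehicle 139.4 ± 7.11 nt, busulfan 112.7 ± 2.64 nt, SD, n = 2) had an exact permutation p of 0.3333, two-sided, the smallest that 2 against 2 libraries allow. In wt testes the difference was -25.95 nt. Short tails of 30 to 120 nt were carried by 40.5% (95% confidence interval by Wilson's method 39.9 to 41.0%) and 32.8% (32.6 to 33.1%) of vehicle reads and by 60.6% (60.2 to 60.9%) and 56.2% (55.9 to 56.5%) of busulfan reads. Tails of 120 to 210 nt made up 49.7% and 55.4% against 29.8% and 35.3%. The intervals cover counting error only.

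**Figure D4:**
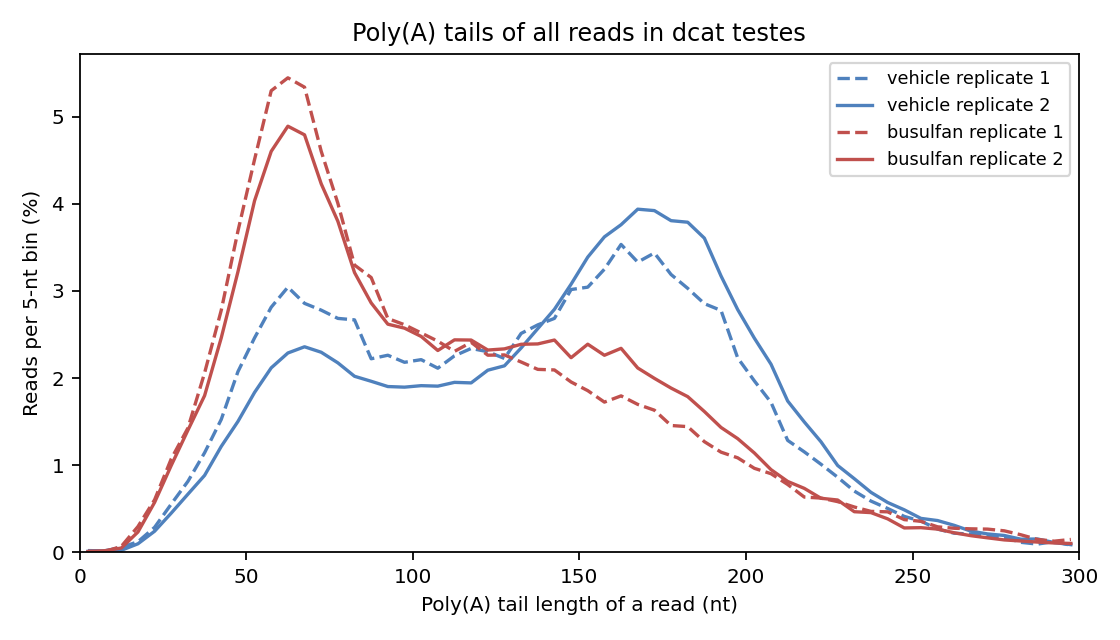
Distribution of poly(A) tail length over all reads of each dcat library, in percent of reads per bin of 5 nt, for vehicle (blue) and busulfan (red), replicate 1 dashed and replicate 2 solid. The share of reads of 30 to 120 nt was 40.5% and 32.8% in the vehicle and 60.6% and 56.2% in the busulfan libraries.

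Mitochondrially encoded reads had mean tails of 67.7 and 69.0 nt in the vehicle and 64.4 and 65.6 nt in the busulfan libraries. All other reads had means of 138.7 and 147.9 nt against 119.8 and 122.5 nt. The mean over all reads can move because transcripts with other tails are read more, or because the tails of given transcripts differ. Over the 2460 transcripts read in all 4 libraries, which held 96.4% of the reads, the difference of -27.1 nt was split into -11.8 nt from the mix of transcripts (43.4%) and -15.4 nt from within transcripts. Mitochondrial transcripts gave -5.85 nt of the mix part and -0.39 nt of the within part. Ribosomal protein genes gave -0.82 and -2.18 nt, and chromatin condensation genes -1.02 and -0.76 nt. Without mitochondrial transcripts the mix part was -5.84 nt and the within part -16.65 nt.

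Per transcript, mean tails were compared by limma for the 441 transcripts that had 10 reads or more in every dcat library. Of these, 86 (19.5%) were shorter and 0 longer after busulfan at an adjusted p under 0.05, and at an unadjusted p under 0.05, 162 were shorter and 1 longer. The median difference was -17.2 nt, and 381 of the 441 differences were below 0. With the replicate number as a block 136 passed, all 86 among them. Without busulfan replicate 1, 31 passed. Each library was also centred on its own median, so that tails were compared with the bulk of transcripts. Then 36 transcripts were longer (8.16%) and 22 shorter (4.99%), and all 22 were among the 86. The median centred difference was 5.5 nt rather than 0, so that a typical transcript counted as slightly longer relative to the bulk. In wt testes 209 of 527 transcripts (39.7%) passed uncentred, 206 shorter (39.1%) and 3 longer (0.569%).

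**Figure D5:**
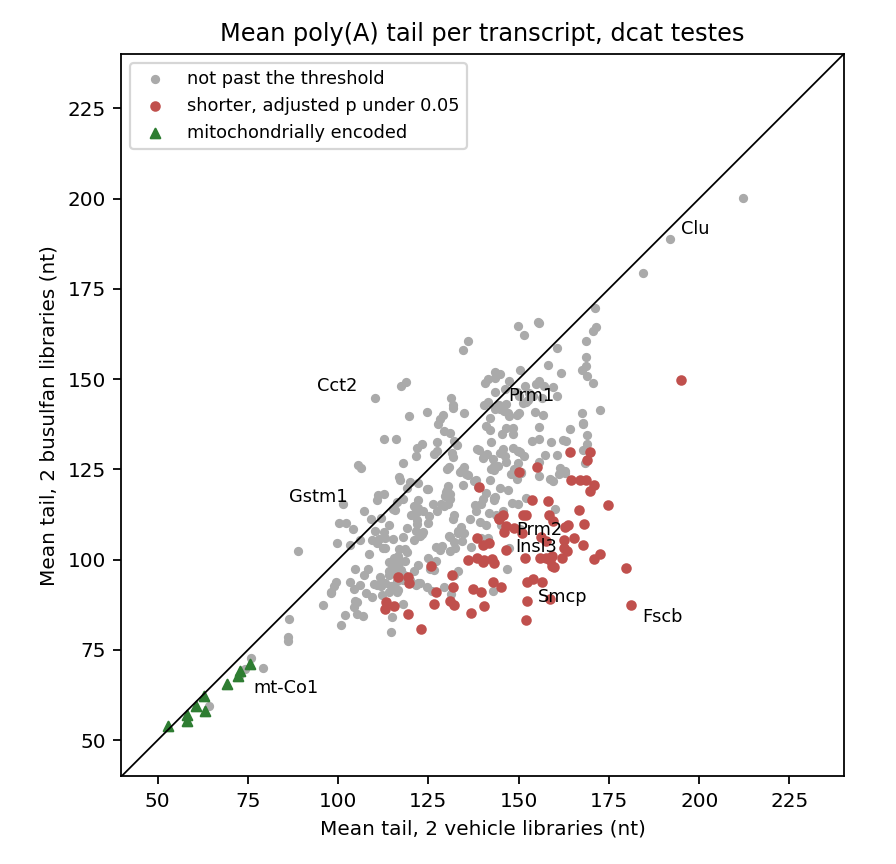
Mean poly(A) tail (nt) of 441 transcripts in dcat testes, each axis the mean of 2 libraries, vehicle across and busulfan up, with the line of equal length. Red points are the 86 transcripts that were shorter after busulfan by limma at an adjusted p under 0.05, and green triangles are mitochondrially encoded. Most points lie under the line, with Fscb farthest, while Clu and Prm1 lie close to it.

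The hormone gene Insl3 had one of the clearest tail differences, with 148.4 and 143.5 nt in the vehicle and 105.4 and 109.9 nt in the busulfan libraries (-38.3 nt, SE 3.14, limma adjusted p = 0.000128). Its reads rose while its tails were shorter. Relative to the bulk of transcripts, the Insl3 tail difference was -15.5 nt and did not pass (limma adjusted p = 0.0986). In wt testes the Insl3 tails were 168.3 and 183.4 nt with vehicle and 180.9 and 187.1 nt with busulfan, and the difference between genotypes in the busulfan response was -46.5 nt (SE 6.20, adjusted p = 0.00978). Of the 339 transcripts tested for this, 3 (0.885%) passed, 2 of them more shortened in dcat testes (0.59%) and 1 less (0.295%). Another was Jak3 (-60.8 nt), a kinase gene whose transcript (chr8:71676296-71690575) ends at the same base as Insl3 (chr8:71689214-71690575), so that the reads of the pair cannot be cleanly separated. The last was Oaz3 (51.8 nt), an antizyme of spermatids, whose tails went from 145.1 and 149.1 to 111.8 and 126.9 nt in dcat testes and from 143.0 and 148.5 to 68.6 and 63.9 nt in wt testes. Jak3 and Oaz3 were chosen after their values were seen.

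Tails of other genes of somatic cells are given as values, since somatic genes were not tested against the rest. The 7 Sertoli genes tested had a median difference of -5.15 nt and 0 passed. Clu tails were 189.5 and 194.3 nt against 193.6 and 184.3 nt (-2.97 nt, adjusted p = 0.632), and those of Ctsl 172.2 and 169.3 against 166.6 and 160.1 nt. Of the other 2 Leydig genes tested, Cyp17a1 had tails of 105.2 and 117.2 against 115.3 and 96.1 nt (-5.51 nt, adjusted p = 0.642). Aldh1a1, a retinal dehydrogenase, had 154.8 and 130.0 against 123.4 and 127.0 nt (-17.2 nt, adjusted p = 0.301), a difference equal to the median over all transcripts. Gstm1 tails were 102.4 and 112.3 against 116.3 and 110.6 nt (6.11 nt, adjusted p = 0.399), and relative to the bulk they were longer by 28.9 nt (adjusted p = 0.00486). Of 10 antioxidant genes, 2 were shorter, near the 19.5% over all transcripts, and 4 were longer relative to the bulk.

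Spermatid genes differed among themselves. Prm1 tails were 143.2 and 143.6 nt in the vehicle and 143.1 and 140.1 nt in the busulfan libraries (-1.80 nt, SE 1.80, adjusted p = 0.496), and Tnp1 tails were 137.9 and 143.9 against 141.3 and 132.9 nt (-3.81 nt). Prm2 tails were 142.8 and 148.3 against 94.7 and 130.0 nt (-33.3 nt, SE 8.22, adjusted p = 0.0218), shorter above all in replicate 1. The Prm2 call was lost with at least 20 reads (limma adjusted p = 0.0586) and without the trend on reads (0.145). It was also lost relative to the bulk (-10.5 nt, limma adjusted p = 0.273). Smcp tails were 148.8 and 155.8 against 78.3 and 109.4 nt (-58.4 nt, SE 9.27, adjusted p = 0.00463). The gene with the largest difference was Fscb, a fibrous sheath protein, at 184.3 and 178.1 against 70.1 and 105.1 nt (-93.6 nt, SE 14.5, adjusted p = 0.00459). Of 15 sperm tail genes 7 were shorter (median -30.2 nt), among them Tppp2 (-62.7 nt) and Spem2 (-61.5 nt), and 4 were shorter relative to the bulk as well. Odf1 did not pass, at 167.4 and 168.5 against 116.3 and 159.2 nt (-30.2 nt, adjusted p = 0.0942).

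The other genes with the largest tail differences were the sialyltransferase St6galnac2 (-82.0 nt), ENSMUST00000229623 (-70.5 nt), which has no symbol in the files, Rnf138 (-69.5 nt), Crisp2 (-68.6 nt, transcript ENSMUST00000233529), Rad23b (-63.8 nt), Osbp2 (-63.7 nt) and the aquaporin Aqp11 (-61.8 nt). St6galnac2 went from 193.8 and 165.6 to 86.7 and 108.7 nt, with a read count that did not differ by the test (log2 fold change -0.05, adjusted p = 0.930). Rad23b and Tppp2 likewise had overlapping read counts. Relative to the bulk, Chl1 (-38.1 nt) was also among the most shortened, while the Osbp2 call was lost (-40.9 nt, limma adjusted p = 0.0534). Another Osbp2 transcript (ENSMUST00000102950) went from a mean of 125.4 nt in vehicle to 97.5 nt in busulfan libraries and did not pass.

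Genes of protein synthesis moved with the bulk of transcripts. Of 68 ribosomal protein genes tested 15 were shorter and of 10 translation factors 2, near the 19.5% over all transcripts. The ribosomal median was -21.0 nt beside -17.2 nt over all transcripts, and 0 of these genes passed relative to the bulk. Rps20 tails were 140.6 and 139.9 against 93.2 and 106.4 nt (-40.5 nt, adjusted p = 0.00489). Eef1a1, the elongation factor that brings aminoacyl-tRNA to the ribosome, had 144.3 and 148.6 against 106.9 and 111.7 nt (-37.2 nt, adjusted p = 0.00219). Of 5 genes of the poly(A) machinery, Ybx1 (-53.0 nt) and Ybx3 (-45.2 nt) were shorter. The Ybx3 call was lost with medians (-35.9 nt), with lengths on a log2 scale and without the trend on reads. It was also lost relative to the bulk (-22.4 nt, limma adjusted p = 0.143). Ybx1 went from 170.2 and 163.1 to 111.1 and 116.2 nt. Tent5c tails were 145.0 and 173.7 against 108.3 and 135.1 nt (-37.7 nt, SE 13.6, adjusted p = 0.0794), and did not pass.

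Mitochondrially encoded transcripts had the smallest differences of the lists with 10 or more genes tested, with a median of -3.23 nt and 0 of 10 past the threshold. mt-Co1 tails were 72.1 and 73.6 against 69.1 and 69.5 nt (-3.60 nt, adjusted p = 0.0638). Relative to the bulk, 7 of the 10 were longer. The transcripts with the largest lengthening relative to the bulk were Cct2 (57.5 nt) and Cct3 (43.0 nt), subunits of the cytosolic chaperonin, Srp14 (53.4 nt), Morf4l1 (53.2 nt), Prdx4 (47.5 nt), Gkap1 (46.3 nt), Suclg1 (43.5 nt), Dbi (43.4 nt), Mt2 (41.8 nt) and Cldn11 (39.0 nt). Without centring none of these passed. Cct2 tails, for example, were 106.3 and 114.1 against 150.0 and 139.7 nt (34.7 nt, adjusted p = 0.0744).

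Shorter tails were found among transcripts of every count response, with the lowest share among those whose counts rose. Of the transcripts whose counts rose, 93 were tested and 6 were shorter (6.45%, median -11.8 nt), beside 19.5% over all transcripts. Of those whose counts fell, 112 were tested and 27 were shorter (24.1%, median -18.7 nt). Of those not past the count threshold, 236 were tested and 53 were shorter (22.5%, median -19.7 nt). Relative to the bulk, 16, 7 and 13 were longer and 0, 8 and 14 shorter, in the same order. Across the 441 transcripts, Pearson's r was -0.47 between the vehicle tail and the tail difference and -0.41 between the vehicle tail and the log2 fold change of counts. The first pair shares the vehicle tail by construction, and transcripts are not independent replicates, so that these are descriptions only.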

How the data were processed

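The authors basecalled Nanopore direct RNA reads with Guppy, aligned them with Minimap2 to GENCODE transcripts of GRCm38 (mm10), demultiplexed with Deeplexicon and estimated tails with Nanopolish. The deposited count table holds raw read counts per transcript, and the deposited tail table holds 1 tail length per read in nucleotides. Deposited DESeq2 tables of log2 fold changes and p-values between genotypes were not used. Over all 8 libraries as 4 groups, counts were compared with edgeR 4.0.16 (R 4.3.3, TMM scaling, quasi-likelihood test). Mean tails were compared with limma 3.58.1 (trend on reads) in the 4 dcat libraries, for transcripts with at least 10 reads in each, or in all 8 for the interaction. Tests were two-sided, with Benjamini-Hochberg adjustment over all transcripts tested and a threshold of 0.05. Scripts were tested on simulated data.

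Of the 2783 transcripts, 2738 were found in GENCODE vM21, the source of coordinates. CPM of single genes are TMM-scaled, and summed CPM of lists are not. A transcript shares reads with other isoforms or near-identical paralogs, which makes such counts uncertain. The tail table holds 621202 reads, of which 176 read names occur more than once and 6 tails are under 1 nt, all kept.

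By the study's methods, replicates 1 and 2 are the 2 multiplexed libraries, each with 1 mouse per group, so that the numbers pair the samples. The main tests did not use this pairing, which entered only as the replicate block among the alternatives. Deviations of the dcat vehicle and busulfan groups correlated across transcripts with r = 0.21 for counts and 0.03 for tails. The members and gene lists were chosen with earlier results of these data known. Named genes are up to 4 most-read genes per list, the 10 largest changes of counts and of tails (as measured and centred on each library's median) per direction that passed without overlap of groups, for counts with at least 20 reads in each library of the higher group, and Tent5c. Other members of the lists were named after their values were seen. Alternatives were RLE scaling, DESeq2 1.42.0, a low-count filter, counts per gene, only the dcat libraries, the replicate block, other tail summaries, read minimums and weights, and leaving out each library.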

Additional observations from a re-analysis of the deposited data

Results flagged for a closer look

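The response of read counts to busulfan differed between the genotypes, by edgeR's interaction test, in 9 transcripts, in each of which the fall was smaller in dcat testes. The dcat minus wt log2 fold changes were 6.85 for Cby2, 4.96 for Spem1, 4.33 for Spata6, 3.40 for 4933411K16Rik, 2.94 for Prm1, 2.93 for Tnp2, 2.82 for Tnp1, 2.78 for Gapdhs and 2.72 for Prm2. Cby2 had 0 reads in both wt busulfan libraries, so that its value depends on the prior count and is no bound.

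By limma, the tail response differed in 3 transcripts, by -46.5 nt for Insl3, -60.8 nt for Jak3 and 51.8 nt for Oaz3 (dcat minus wt). Dcat busulfan replicate 2 held 1.46 to 2.77 times the summed CPM of replicate 1 for the germ cell lists. Its part in these differences was not tested beyond leaving it out.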

How the results depend on the processing

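With 2 mice per group and 29574 reads in the shallowest library, the number of transcripts called depends on the settings more than the direction of the lists does. Against 1746 count calls, DESeq2 made 1095 (391 higher and 704 lower), RLE scaling split its calls into 767 higher and 997 lower, and leaving out 1 library gave 712 to 1795. Against 9 interaction calls, RLE scaling gave 68, a filter on low counts 36 (chosen after seeing the data), the replicate block 123, and leaving out 1 library 3 to 257. Against 86 tail calls, at least 20 reads gave 48, no trend 50, weights by reads 156, the replicate block 136, and leaving out 1 library 31 to 97. The tail interaction gave 3 calls with the block, also added after seeing the data. The mean tail difference of -26.7 nt was -46.1 nt for medians and -31.7 to -21.7 nt without 1 library. The mix part was -5.84 nt without mitochondrial transcripts. A library left alone in its group was assumed to vary like the other groups. The causes were not tested.

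Of 1129 alternative fold changes of 113 named transcripts, 1039 kept their direction and side of the threshold, 55 lost it, 20 gained it and 15 reversed. Of 594 alternative tail differences of 48 transcripts these were 501, 49, 31 and 13. Reversed fold changes were Cox7c (-0.15 with DESeq2, -0.16 with RLE, -0.0225 in the 4 dcat libraries, -0.0051 to 0.176 without 1 library), Lamp1 (-0.0254 with DESeq2, -0.0076 with RLE, -0.0074 to 0.394 without 1 library), Psmb6 (0.0496 with the filter, -0.281 to 0.15 without 1 library), Actg2 (-2.09 to 0.11 without 1 library), Rpl41 (-0.355 to 0.0765), Eef2 (-0.0327 to 1.16) and Hbb-bs (-2.27 to 3.02). Reversed tail differences on centring were Clu (19.8 nt), Prm1 (21.0 nt), Tnp1 (19.0 nt), Rpl41 (1.29 nt), mt-Co1 (19.2 nt), mt-Co2 (17.6 nt), mt-Co3 (18.5 nt) and mt-Atp6 (18.2 nt). Without 1 library, Clu (-7.61 to 1.68 nt), Tnp1 (-8.02 to 0.392 nt) and Tuba3b (-0.115 to 11.6 nt) reversed, and Tuba3b did with weights by reads (-2.04 nt). Of named transcripts, the replicate block moved 1 fold change and 2 tail differences past the threshold and lost 0 calls.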
